A study of Homo sapiens with 14 samples.

Results

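The exon junction complex is a set of proteins that the spliceosome leaves on a messenger RNA just upstream of each newly joined exon boundary. Its core is the RNA clamp EIF4A3, a DEAD-box helicase held on the RNA by the dimer of RBM8A (also called Y14) and MAGOH or its paralog MAGOHB, and CASC3 (also called MLN51 or Barentsz) joins it in the cytoplasm. RNPS1 binds the complex at its edge as part of the ASAP and PSAP assemblies, which act on splicing and on the decay of transcripts with premature stop codons. The complex travels with the message to the cytoplasm, where it assists export and translation and marks a stop codon that lies upstream of it for nonsense-mediated decay.

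The 6 genes EIF4A3, MAGOH, MAGOHB, RBM8A, CASC3 and RNPS1 were taken by symbol from the isoform tables of all 14 libraries. They are 6 of 57756 genes and hold 63 of 195553 isoforms, and all 6 were among the 14233 genes expressed highly enough to be tested. RNA was from A549, a human lung carcinoma line, and the study asked how U2AF1, the splicing factor subunit that reads the AG at the end of an intron, and its cancer mutation S34F affect splicing. There were 7 groups of 2 libraries: untreated cells; cells with empty vector and control siRNA, called control; cells with empty vector after U2AF1 knockdown, called knockdown; and knockdown cells infected with virus that delivers the v1 or the v3 isoform of U2AF1, in wild-type (WT) or S34F form. The cell line is an established culture, so each group is 1 line under 1 treatment, and the 5 groups other than untreated and control all carry the knockdown. Whether the 2 replicates of a group were grown separately is not stated, so the tests see the spread between libraries, part of which may be technical. In bulk RNA, fewer cells of a kind and less RNA per cell cannot be told apart.

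Relative depth ranged from 0.798 to 1.199 times the mean library, and 13734 to 14705 genes per library reached 1 FPKM (fragments mapped to a transcript, divided by its length and by the library's mapped total). The absolute read number is unknown, so no counting interval is given. U2AF1 in the knockdown was at 19.1% of the control, and with the constructs it reached 22.2 to 25.6 times the control, so these cells held far more U2AF1 RNA than untreated cells. All 9 listed epithelial and A549 markers were present, with a summed level of 5984 to 7930 FPKM, while none of the 4 alveolar type II, 4 leukocyte and 2 measured endothelial markers had a mean of 1 FPKM (summed levels of at most 0.606). Of 4 fibroblast markers 1 did, with the list summing to 6.71 to 10.01 FPKM. In v1 S34F replicate 2 a single 75-base isoform took 33.1% of the FPKM sum, and in knockdown replicate 1 a single 89-base isoform took 8.81%. The closing section gives how results moved without single libraries.

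In the files' build, GRCh37, EIF4A3 (ENSG00000141543) lies at chr17:78109013-78120982, MAGOH (ENSG00000162385) at chr1:53692564-53704282 and MAGOHB (ENSG00000111196) at chr12:10758612-10766222. RBM8A (ENSG00000131795) lies at chr1:145507598-145513536, CASC3 (ENSG00000108349) at chr17:38296571-38328436 and RNPS1 (ENSG00000205937) at chr16:2303117-2318413. RNPS1 has 26 listed isoforms, MAGOHB 11, CASC3 10, EIF4A3 8, and MAGOH and RBM8A 4 each.

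The sequences shown are the ends of 3 introns and stretches of the exons that follow them. Of these acceptors only that of RNPS1 was called in any comparison. Each window below holds 20 intron bases and 10 exon bases on the transcript strand, with the last 3 intron bases in capitals, read from GENCODE release 29 transcripts (GRCh38) whose exons cover the position. They are the RNPS1 exon 2 acceptor at chr16:2264751-2264780, the MAGOH exon 3 acceptor at chr1:53233643-53233672 and the acceptor of an extra MAGOHB exon at chr12:10609374-10609403, all on the minus strand.
RNPS1 exon 2: cccttttatcttgttatTAGgctgctcttt
MAGOH exon 3: gttttttaacttgcgttCAGgcttatgtac
MAGOHB extra exon: tccctctcatattccttCAGaataaatgat
The RNPS1 site ends in TAG and both others end in CAG. TAG also ends the introns before the tested acceptors of CASC3 at chr17 position 40163886 and of MAGOHB at chr12 position 10607936. Neither was called between mutant and wild type. Their usage differed by -0.89 (SE 4.76) and -8.38 percentage points (SE 4.08), with adjusted p = 0.973 and 0.403 by limma. The CASC3 acceptor at chr17 position 40167498 follows CAG. Among 14781 tested acceptors whose intron ends could be read and closed with AG, 22.0% had T before the AG and 68.4% had C. Only 47.3% of the 31429 tested acceptors could be read, those with a window inside an annotated exon. The shares describe these acceptors only. Pyrimidines filled 14 of the 17 bases before the capitals at RNPS1, 12 at MAGOH and 15 at MAGOHB.

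RNPS1 exon 2 is 188 bases long (chr16:2264573-2264760) and holds the start codon of the annotated full-length protein. Its coding part is 71 bases (chr16:2264573-2264643), shown because isoforms that skip the exon lose it, with the start codon in capitals.
RNPS1 exon 2 coding part: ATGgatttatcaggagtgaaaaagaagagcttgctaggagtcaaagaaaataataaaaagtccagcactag

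The RNPS1 exon 2 acceptor was used less with the S34F mutant than with wild-type U2AF1, in a measure whose call depended on counting 1 isoform. Acceptor usage was computed from isoform FPKM, with the 16 isoforms that splice to the site divided by all 22 that span it, and not from junction reads. It was 65.7% and 62.7% in untreated cells (replicates 1 and 2), 64.0% and 61.2% in the control, and 72.2% and 72.4% in the knockdown. With wild-type constructs it was 66.001% and 66.7% for v1 and 69.6% and 66.9% for v3. With the mutant it was 54.1% and 52.1% for v1 and 49.7% and 53.0% for v3. The 4 mutant libraries were the lowest of the 14 and did not overlap any other, and both knockdown libraries were the highest.

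The mutant mean was 52.3% ± 1.88 against 67.3% ± 1.58 with wild type (SD, n = 4 libraries each), a difference of -15.06 percentage points (SE 1.59, adjusted p = 0.0015 by limma over 31429 acceptors). Usage was lower in 4 of 4 pairs of same construct and replicate number, which follows from the lack of overlap. Of all acceptors, 2.79% were called in this comparison and 1.77% lower, groups were separate with lower usage at 5.69%, and the RNPS1 site ranked 35 by p. It was the only one of 7 tested acceptors in 4 of the genes, those of CASC3, MAGOH, MAGOHB and RNPS1, that passed. The difference between constructs in the mutant effect was -3.64 points (SE 3.18, adjusted p = 1.0 by limma), which was not detectable; 0.0127% of acceptors were called there.

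**Figure D1:**
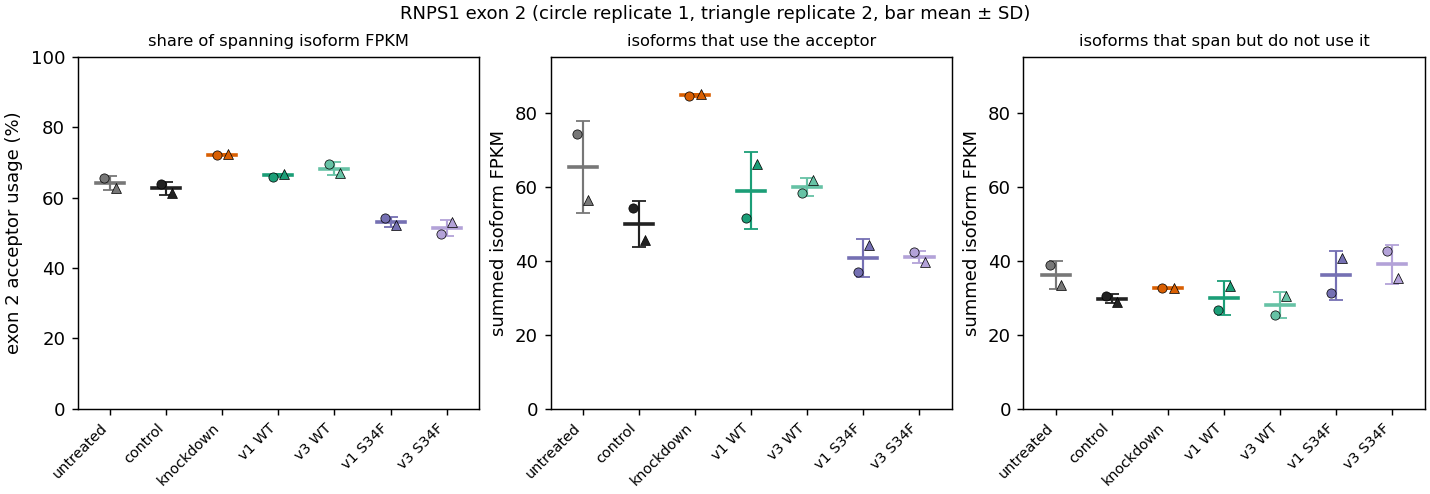
RNPS1 exon 2 by group (x axis) in 14 libraries. The left panel shows acceptor usage in percent, and the others the summed FPKM of isoforms that use the acceptor and of isoforms that span it without using it; circles are replicate 1, triangles replicate 2, and bars the mean ± SD of 2 libraries. The 4 S34F libraries lie between 49.7% and 54.1%, below every other library.

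The shift had 2 sides. Isoforms with the acceptor summed to 51.5 and 66.2 FPKM with v1 WT and 58.2 and 61.7 with v3 WT. They summed to 36.9 and 44.3 with v1 S34F and 42.2 and 39.7 with v3 S34F, so mutant libraries lay below all wild-type ones. Isoforms that span the site without using it averaged 28.9 ± 3.53 FPKM with wild type and 37.5 ± 5.19 with the mutant, and these ranges overlapped. Isoforms that do not reach the site do not enter the measure and averaged 57.5 ± 3.399 and 63.2 ± 2.00 FPKM. They were at 52.8 to 60.5 FPKM with wild type and 60.8 to 65.0 with the mutant, without overlap. How often summed isoform sets separate in this way over all genes was not computed. Isoforms that do not reach the site include the most abundant RNPS1 isoform, ENST00000566397, with a mean of 48.2 FPKM. Its share of RNPS1 FPKM was 6.60 points higher with the mutant (SE 2.89, adjusted p = 0.393 by limma), with overlap. In the knockdown that share differed from the control by -9.18 points (SE 4.09, adjusted p = 0.461 by limma).

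Isoforms outside the rule for named isoforms were chosen after their values were seen. Most of the FPKM that spans the site without using it came from 1 isoform, ENST00000570051, with a mean of 23.6 FPKM. It joins exon 1 to exon 3 directly and ends 70 bases into the intron after its last shared exon, and GENCODE classes it as a retained intron with no coding sequence. Its share of RNPS1 FPKM was 15.5% and 11.4% with v1 WT, 13.4% and 13.7% with v3 WT, 18.4% and 20.9% with v1 S34F and 24.3% and 19.1% with v3 S34F. Every mutant library was above every wild-type one, as for 4.25% of all isoforms, by 7.19 points on average (SE 1.74). That difference had an adjusted p of 0.081 by limma over 41727 isoforms and 0.041 with the replicate number as a block, where 1.29% of isoforms were called higher.

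This isoform and the acceptor are not independent measurements. Without ENST00000570051, acceptor usage was 86.8% ± 3.95 with wild type and 83.5% ± 1.78 with the mutant, a difference of -3.33 points (SE 2.41, adjusted p = 0.639 by limma over all acceptors, 0.363 with the replicate block). In 3 of 4 pairs of same construct and replicate number the mutant stayed lower, with differences of -4.59 and 1.06 for v1 and -4.89 and -4.88 for v3. The isoform was left out after its values were seen, so a smaller difference follows in part from that choice. It held most of the FPKM that does not use the site, so the value does not measure its part in the shift. With wild type and mutant it averaged 19.5 ± 1.31 and 29.4 ± 4.94 FPKM. Isoforms with the acceptor averaged 59.4 ± 6.19 and 40.8 ± 3.16 FPKM. Of the others not using the site with a mean of at least 1 FPKM, ENST00000565870 contains exon 2 in a longer first exon. It averaged 5.21 ± 2.99 and 3.35 ± 1.64 FPKM. ENST00000567147 averaged 1.63 ± 0.53 and 1.41 ± 0.07 FPKM, and both overlapped. ENST00000566458, which skips exon 2, was at 0.44 to 1.80 FPKM with wild type and 2.30 to 3.32 with the mutant. The share of all isoforms with such separate FPKM was not computed. The deposited confidence bounds of ENST00000570051 were 14.1% to 19.8% of its FPKM on either side. Of the isoforms that hold exon 2, ENST00000320225, the full-length coding one, went from 15.9% and 14.6% (v1 WT) and 11.3% and 10.3% (v3 WT) to 7.77% and 7.87% (v1 S34F) and 9.41% and 9.92% (v3 S34F). Mutant libraries lay below all wild-type ones, as for 4.4% of all isoforms, and the adjusted p was 0.265 by limma.

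**Figure D2:**
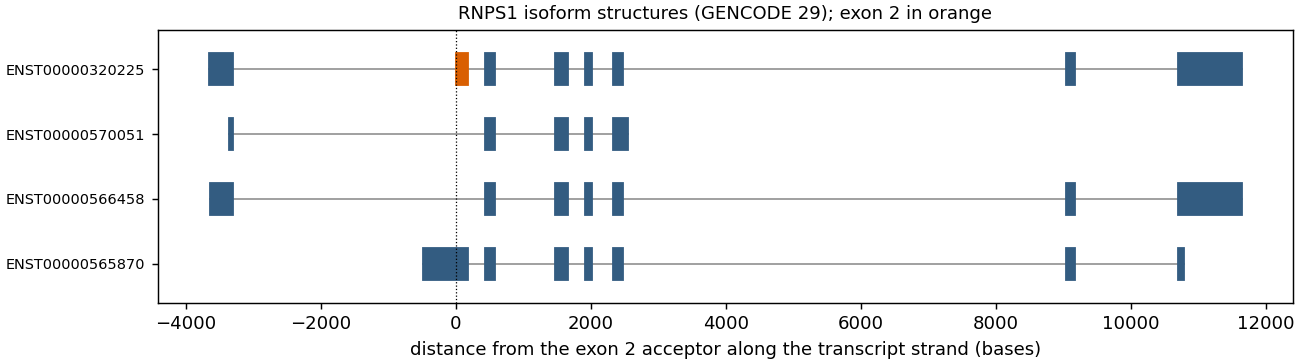
Exon structures of 4 RNPS1 isoforms from GENCODE release 29, drawn as boxes against distance in bases from the exon 2 acceptor along the transcript strand, with exon 2 in orange. ENST00000320225 holds exon 2, ENST00000570051 and ENST00000566458 skip it, and ENST00000565870 starts upstream of it within a longer first exon that contains it.

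In the knockdown the difference had the other sign. Exon 2 acceptor usage was 9.66 points above the control in the knockdown (SE 2.25), with an adjusted p of 0.096 by limma and 0.059 with the replicate block, so it was not called; 0.706% of all acceptors were. Without ENST00000570051 the difference was 0.102 points (adjusted p = 1.0 by limma). The libraries did not overlap, which held with that direction for 15.8% of all acceptors. Wild-type constructs lay between, with a difference of -4.96 points from the knockdown (SE 1.95, adjusted p = 0.3003 by limma; 1.35% of acceptors called) and 4.70 from the control (SE 1.95, adjusted p = 0.751; 0.00636% called). The knockdown comparisons share the knockdown libraries, and the control ones share the control libraries.

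The highest group mean of gene FPKM was 1.18 (EIF4A3) to 1.32 (RNPS1) times the lowest, and 1.76 times in CASC3. In FPKM, a per-length scale, the order of the means over all libraries was RNPS1, EIF4A3 and RBM8A, whose ranges over libraries overlapped, then MAGOH, CASC3 and MAGOHB, whose ranges overlapped. Without a replicate block, limma on log2(FPKM + 1) called none of the 6 genes in any of 6 comparisons at adjusted p under 0.05. With the block, RBM8A, MAGOHB and RNPS1 were called in knockdown against control (adjusted p = 0.034, 0.044 and 0.033 by limma). There 4.69% of all genes were called higher. Without the block, an unadjusted p under 0.05 was found for 4 of 6 genes in the knockdown comparison, against 18.9% of all genes. It was found for 1 of 6 between wild type and knockdown (15.8% of all genes) and for 2 of 6 between wild type and control (13.6%). The group means of EIF4A3, MAGOH, MAGOHB, RBM8A and RNPS1 varied less than those of a typical gene, at percentiles 8.40 to 33.5 of all tested genes. CASC3 was at percentile 74.9. The ranking covers genes of every level and was not matched for expression.

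EIF4A3, the helicase that clamps the RNA, was at 134 and 147 FPKM in untreated cells, 120.2 and 139 in the control and 135 and 162 in the knockdown. With constructs it lay between 123 and 139 FPKM in all 8 libraries. Knockdown and control overlapped, and the difference was 0.19 on the log2 scale (SE 0.12, adjusted p = 0.412 by limma). A single coding isoform, ENST00000269349, made up 91.0% to 98.1% of its FPKM.

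RBM8A, which locks the clamp as a dimer with MAGOH, was at 123 and 132 FPKM in untreated cells, 114 and 117 in the control and 137 and 157 in the knockdown. With constructs it was at 127 and 139 (v1 WT), 137 and 130.4 (v3 WT), 132 and 128 (v1 S34F) and 133 and 139 (v3 S34F). Knockdown libraries were above both control libraries and above untreated ones, and control libraries were below all others. The knockdown was 1.27 times the control, a log2 difference of 0.34 (SE 0.10, adjusted p = 0.102 by limma, 0.034 with the replicate block). RBM8A overlaps GNRHR2, at 4.48 to 8.37 FPKM, and reads of the overlap could be counted to either gene.

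MAGOH, a partner of RBM8A in the locking dimer, was at 51.3 and 50.1 FPKM in untreated cells, 58.1 and 41.2 in the control and 62.0 and 66.7 in the knockdown. Its paralog MAGOHB was at 41.7 and 41.7, 43.3 and 39.2, and 52.0 and 56.2 FPKM in the same groups. Both knockdown libraries were above both controls for either gene. The log2 differences were 0.39 for MAGOH (SE 0.16, adjusted p = 0.234 by limma) and 0.38 for MAGOHB (SE 0.12, adjusted p = 0.109, 0.044 with the replicate block). Leaving out 1 library moved the MAGOH difference between 0.14 (without control replicate 2) and 0.63 (without control replicate 1).

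The paralogs kept nearly the same balance in all 14 libraries. MAGOHB made up 42.5% to 48.7% of the summed pair, and the pair was 0.685 to 0.886 times RBM8A. Their levels were correlated across libraries at Pearson's r = 0.83 and Spearman's rho = 0.88 (n = 14, a description over libraries that share treatments and depth). The genes are close copies, so some reads could belong to either. Over the coding bases of exons 2 to 5, 306 of 350 were identical, and the longest identical run was 38 bases. Exon 3, at chr1:53233542-53233652 in MAGOH and chr12:10609831-10609941 in MAGOHB (GRCh38, minus strand), shows the spacing of the differences, which are in capitals at 17 of 111 positions.
MAGOH exon 3: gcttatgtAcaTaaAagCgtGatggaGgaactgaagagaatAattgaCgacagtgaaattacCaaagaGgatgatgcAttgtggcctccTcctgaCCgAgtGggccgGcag
MAGOHB exon 3: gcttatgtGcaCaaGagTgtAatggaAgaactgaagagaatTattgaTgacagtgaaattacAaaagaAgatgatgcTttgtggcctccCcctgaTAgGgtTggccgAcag

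CASC3, the cytoplasmic member, was the most variable. It was at 48.3 and 39.9 FPKM in untreated cells, 33.3 and 44.6 in the control and 47.0 and 47.8 in the knockdown. With constructs it was at 48.5 and 63.6 (v1 WT), 38.8 and 52.4 (v3 WT), 53.1 and 84.4 (v1 S34F) and 50.004 and 61.7 (v3 S34F). Replicate 2 was above replicate 1 in 6 of 7 groups, and the highest library was v1 S34F replicate 2, one of the libraries with an outsized short isoform. Mutant and wild-type libraries overlapped, and the log2 difference was 0.28 (SE 0.17, adjusted p = 0.474 by limma). Leaving out 1 library moved it between 0.11 (without v1 S34F replicate 2) and 0.44 (without v1 S34F replicate 1). CASC3 was 2.53 times higher in the highest library than in the lowest, against 1.35 to 1.62 times for the 5 others.

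RNPS1, the link to ASAP and PSAP, was at 153 and 148 FPKM in untreated cells, 133 and 124 in the control and 161 and 178 in the knockdown. With constructs it was at 131 and 157 (v1 WT), 143 and 153 (v3 WT), 133 and 149.7 (v1 S34F) and 146 and 137 (v3 S34F). The knockdown was 1.32 times the control, and its 2 libraries were the highest of all. The log2 difference was 0.39 (SE 0.11, adjusted p = 0.092 by limma, 0.033 with the replicate block). The gene's summed FPKM was nearly the same with mutant and wild type (log2 difference -0.04, SE 0.08, adjusted p = 0.869 by limma). Its exon 2 usage was lower with the mutant, in a call that depended on counting ENST00000570051.

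**Figure D3:**
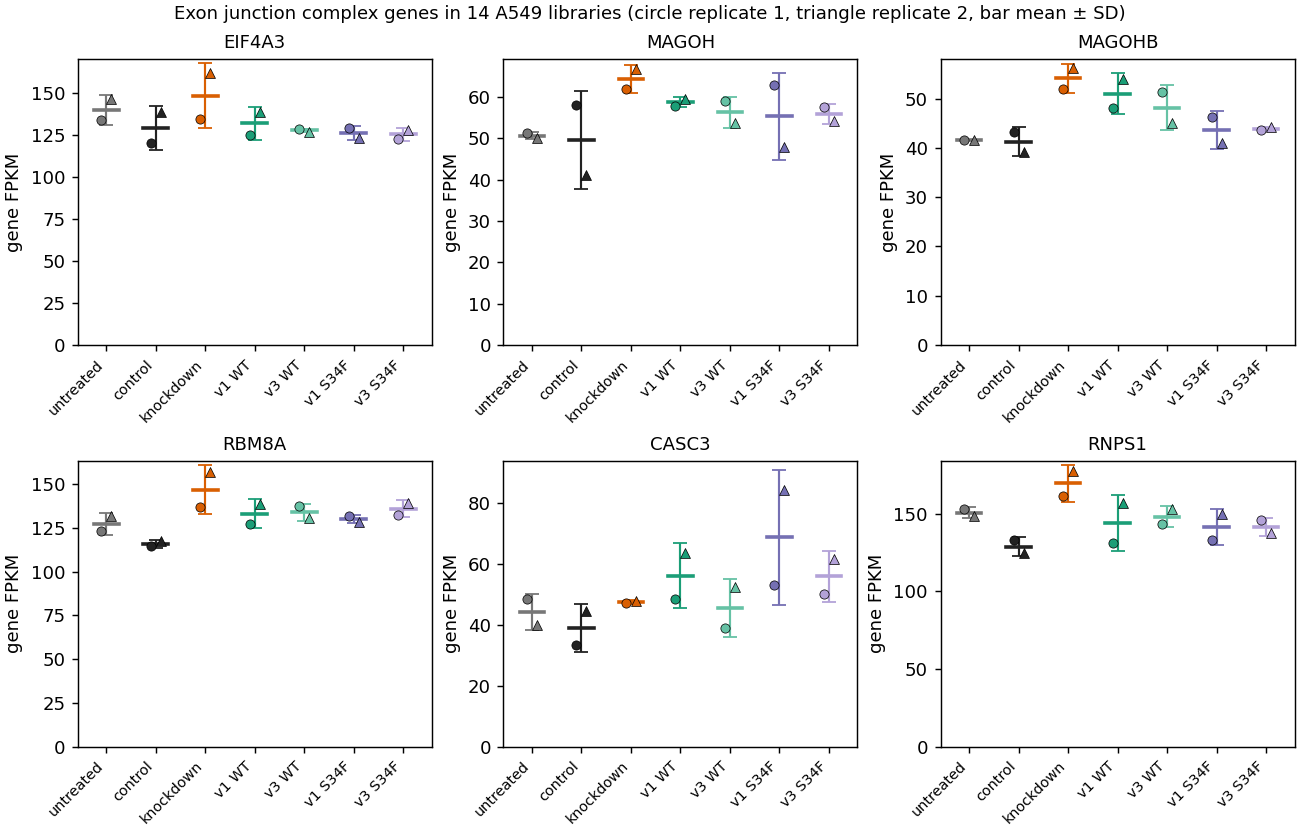
Gene FPKM (y axis, from 0) of the 6 genes in 7 groups of 2 libraries. Circles are replicate 1, triangles replicate 2, and bars the mean ± SD; the knockdown has the highest mean of all groups for each gene but CASC3.

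Knockdown against control, read over the whole complex, gave 6 of 6 genes above the control in both replicate numbers. The median log2 difference was 0.36, against -0.01 for all genes tested, of which 48.3% were above 0. In 5 of 6 genes, all but EIF4A3, both knockdown libraries were above both control libraries, which held for 24.7% of all genes. None was called, with 2.85% of all genes called by limma in this comparison (0.787% higher), while with the replicate block RBM8A, MAGOHB and RNPS1 were called higher and 4.69% of all genes were. Control libraries were also low: all 6 genes were below untreated cells in the control, with a median of -0.13 on the log2 scale, against 45.9% of all genes above 0 and a median of -0.02. Of these, RBM8A and RNPS1 had both control libraries below both untreated ones, as 16.5% of all genes did, and 0.0% of genes were called.

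Adding wild-type U2AF1 to the knockdown put 5 of 6 genes below the knockdown, all but CASC3, with a median of -0.15 on the log2 scale against 0.02 for all genes, of which 53.5% were above 0. Only MAGOH and RNPS1 had all 4 wild-type libraries below both knockdown libraries, which held for 16.3% of all genes. Their log2 differences were -0.16 (SE 0.14) and -0.22 (SE 0.10), with adjusted p = 0.633 and 0.315 by limma. Of all genes 1.43% were called in that comparison. Against the control, wild-type libraries had 6 of 6 genes above 0, by a median of 0.21, where 52.0% of all genes were above 0 and 0.436% were called. All 4 wild-type libraries were above both controls for MAGOHB and RBM8A, as for 13.9% of all genes. These comparisons share the control or knockdown libraries with the first one.

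Mutant against wild type left the levels of the complex close. The largest differences were in CASC3, given above, and MAGOHB, whose log2 difference was -0.17 (SE 0.08, adjusted p = 0.338 by limma). MAGOHB was at 49.6 ± 3.89 FPKM with wild type and 43.8 ± 2.22 with the mutant (SD, n = 4 libraries each), and the groups overlapped. Only CASC3 was above 0, the median over the 6 genes was -0.04 against 0.02, 54.6% of all genes were above 0 and 1.85% were called. The difference between constructs was not called for any of the 6, with log2 values from -0.04 to 0.09, and 0.0% of all genes were called there.

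**Figure D4:**
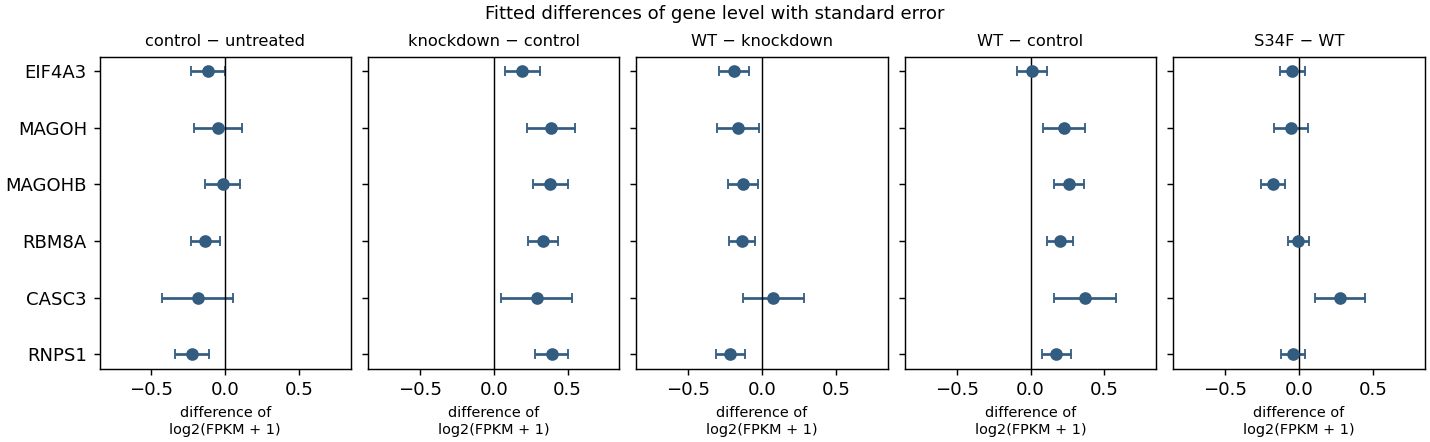
Fitted differences of log2(FPKM + 1) (x axis) with standard errors for the 6 genes (y axis) in 5 comparisons. All 6 points lie right of 0 for knockdown minus control, and CASC3 has the widest errors.

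Among isoforms, 13 of the 63 had a mean usage of 5% to 95% and were tested, and none was called in any comparison by limma without the block. Of all isoforms, 0.383% were called between knockdown and control, 0.669% between wild type and knockdown, 1.45% between mutant and wild type and 0.0% in the others. In MAGOH the isoform without exon 3, ENST00000371466, was at 21.9% and 19.1% in untreated cells, 24.1% and 24.0% in the control and 30.5% and 36.1% in the knockdown. It was at 29.4% and 29.8% with v1 WT, 25.5% and 25.8% with v3 WT, 30.6% and 24.97% with v1 S34F and 21.8% and 24.0% with v3 S34F. The knockdown was 9.24 points above the control (SE 2.74, adjusted p = 0.223 by limma), and its libraries did not overlap the controls, as for 20.4% of all isoforms in that direction. The exon 3 acceptor shown earlier was used at 75.6% and 75.0% in the control and 69.2% and 63.7% in the knockdown, a difference of -8.88 points (SE 2.71, adjusted p = 0.201 by limma) that rests on the same isoforms. The exon is 111 bases long and can be left out without a change of reading frame.

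MAGOHB has an extra exon of 286 bases (chr12:10609098-10609383) between exons 3 and 4, which brings a stop codon 6 bases in; the start of the exon, with the stop codon in capitals, shows it (chr12:10609372-10609383).
MAGOHB extra exon start: aataaaTGAtgt
The 4 isoforms with it summed to 5.41% and 7.44% of MAGOHB FPKM in untreated cells, 4.72% and 7.38% in the control and 5.38% and 4.69% in the knockdown. They summed to 6.81% and 8.32% with v1 WT, 8.85% and 13.1% with v3 WT, 8.54% and 20.9% with v1 S34F and 11.4% and 16.1% with v3 S34F. Mutant libraries were above the wild-type library of the same construct and number in 4 of 4 pairs, but the groups overlapped. The tested isoform of this kind, ENST00000544850, annotated for nonsense-mediated decay, differed by 5.49 points (SE 2.76, adjusted p = 0.487 by limma).

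The acceptor measure for MAGOHB rests on isoforms with 15.6% of its FPKM, since the main one did not match the annotation in length. Among them the extra exon's acceptor was used at 33.4% and 50.8% in the control and 69.8% and 53.6% in the knockdown. These did not overlap (as for 15.8% of acceptors in that direction), and the difference was 19.6 points (SE 8.03, adjusted p = 0.359 by limma). The acceptor was used at 47.0% to 64.9% with wild type and 67.2% to 78.3% with the mutant. Those groups did not overlap (as for 4.02% of acceptors in that direction), with a difference of 14.1 points (SE 5.68, adjusted p = 0.280 by limma). The share of all MAGOHB FPKM given above was not higher in the knockdown, so the 2 measures differ there.

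The acceptor at chr12 position 10612978 had the largest mutant difference of the 7, at -22.1 points (SE 8.74, adjusted p = 0.271 by limma, 0.071 with the replicate block). Its usage was 37.4% to 55.4% with wild type and 15.9% to 28.1% with the mutant, without overlap (as for 5.69% of acceptors in that direction). Control replicates were at 56.4% and 15.1%. The intron end at this site could not be read, so its sequence is not shown. The isoforms that span these acceptors averaged 7.03 and 7.23 FPKM in sum, against 90.2 at RNPS1.

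The CASC3 isoform ENST00000474190, annotated for nonsense-mediated decay, was at 25.2% and 10.7% in untreated cells and at 5.35% and 25.3% in the control. Replicates of these groups lay far apart, and values in the 5 other groups ran from 5.95% to 19.0%. Over the 3 genes with a tested share of isoforms annotated for decay or intron retention, CASC3, MAGOHB and RNPS1, no comparison was called by limma (adjusted p from 0.718 to 0.993 in 4 comparisons). Of all genes, 0.2% were called for this share between mutant and wild type, 0.146% between wild type and knockdown and 0.0% in the others. In RBM8A the main isoform ENST00000369307 made up 81.4% to 86.4% of FPKM in all libraries.

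**Figure D5:**
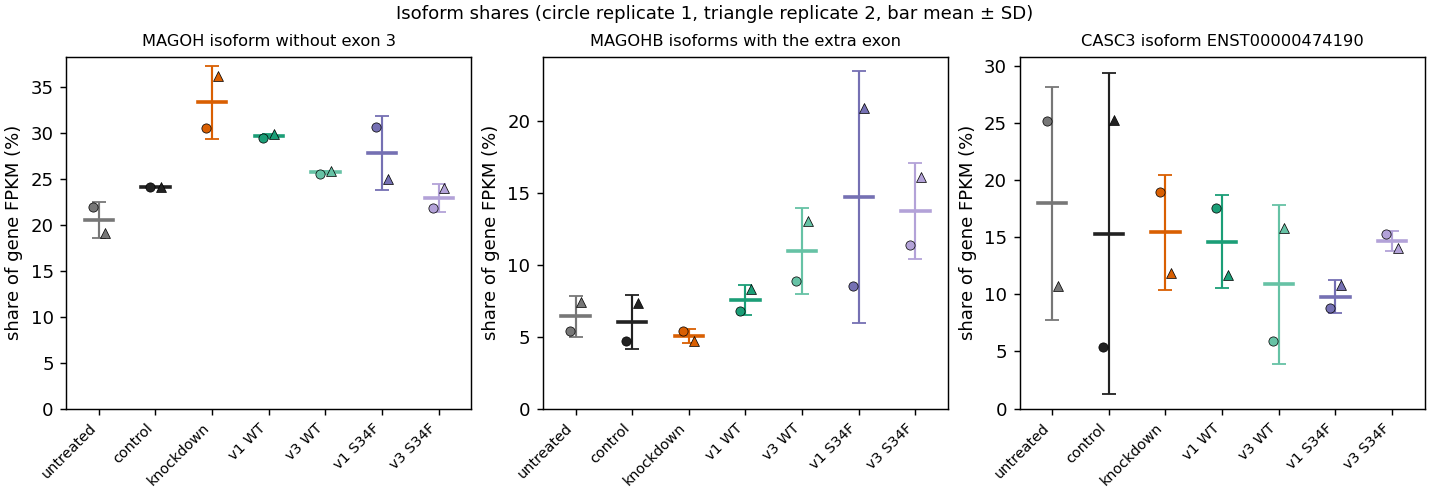
Share of gene FPKM in percent (y axis, from 0) of the MAGOH isoform without exon 3, of the MAGOHB isoforms with the extra exon and of CASC3 isoform ENST00000474190 in 7 groups of 2 libraries. Circles are replicate 1, triangles replicate 2, and bars the mean ± SD; the MAGOH isoform has its highest group mean in the knockdown, at 30.5% and 36.1%, next to v1 S34F replicate 1 at 30.6%.

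The list of 24 factors that assemble, release or act with the complex gave no call by limma in any of 6 comparisons. In the knockdown comparison 6 of 24 had an unadjusted p under 0.05, against 18.9% of all genes. Of the 24, 17 were above the control, with a median of 0.22 on the log2 scale, against 48.3% and -0.01 for all genes tested. With the replicate block 4 of 24 were called higher, against 4.69% of all genes: PNN, the PSAP subunit that binds RNPS1 (0.52, SE 0.09, adjusted p = 0.0056 by limma with the block), SAP18, a subunit of ASAP and PSAP (0.45, SE 0.12, adjusted p = 0.036), and the SR proteins SRSF7 (0.40, SE 0.11, adjusted p = 0.040) and SRSF1 (0.29, SE 0.08, adjusted p = 0.045). PNN was at 63.6 and 76.3 FPKM in the control and 91.6 and 110.4 in the knockdown, but also at 88.9 and 97.6 in untreated cells. Between mutant and wild type, 14 of 24 were above 0, against 54.6% of all genes. PNN (0.24, SE 0.06, adjusted p = 0.042) and the decay factor SMG5 (0.31, SE 0.08, adjusted p = 0.043) were called higher by limma with the block, against 3.27% of all genes. For both, mutant and wild-type libraries overlapped and the highest library was v1 S34F replicate 2, one of the libraries with an outsized short isoform. The block also called SRSF1 lower with wild type than in the knockdown (-0.30, SE 0.07, adjusted p = 0.035 by limma; 2.55% of genes called lower) and PNN higher than in the control (0.31, SE 0.08, adjusted p = 0.049).

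The helicases EIF4A1 and EIF4A2 are relatives of EIF4A3 that act in translation initiation. EIF4A1 was at 839.8 and 867 FPKM in the control and 954 and 1054 in the knockdown, a log2 difference of 0.23 (SE 0.09, adjusted p = 0.209 by limma). EIF4A2 was at 129 and 151 FPKM in untreated cells, 117 and 110.4 in the control, 126 and 120.1 in the knockdown and 148 to 181 in the 4 wild-type libraries, so untreated replicate 2 lay within the wild-type range. With wild type its log2 difference was 0.52 from the control (adjusted p = 0.152 by limma, 0.029 with the block) and 0.41 from the knockdown (adjusted p = 0.204, 0.045 with the block). With the block, 1.74% of genes were called higher than in the control and 4.97% higher than in the knockdown.

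The genes whose levels followed the complex most closely over the 14 libraries, with Pearson's r, were RP11-152N13.5 (0.91) and SNRPB (0.90) for EIF4A3, LAPTM4B (0.93) and TOMM6 (0.92) for MAGOH, and UQCRC2 (0.89) and PSMA6 (0.87) for MAGOHB. They were PARL (0.93) and HSPA14 (0.92) for RBM8A, CTD-2619J13.14 (0.92) and EID3 (0.91) for CASC3, and CHAMP1 (0.89) and RMI1 (0.89) for RNPS1. These are the highest of all tested genes and so a description only, over libraries that share treatments and depth. Among the 6 genes, RBM8A went with MAGOHB at 0.75 and with RNPS1 at 0.71, while CASC3 was between -0.13 and 0.27 with every other one.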

How the data were processed

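The deposited tables hold an FPKM and a coverage per isoform for each library. The submitters' processing notes name Trimmomatic 0.30, TopHat2 2.0.12 and the build GRCh37; which quantifier and annotation were used is not given in the sources used here. Coverage signal in the deposited tables gave relative depth. Gene FPKM was the sum over isoforms, tested with limma 3.58.1 (R 4.3.3) on log2(FPKM + 1) for genes with a mean FPKM of at least 1, with 1 mean per group over all 14 libraries and Benjamini-Hochberg adjustment over 14233 genes. Log2 differences are on that scale, which understates low genes; folds written as times are ratios of mean FPKM. Isoform usage was percent of gene FPKM. Acceptor usage took isoforms matched to GENCODE release 29 by identifier and length; this measure was added after the data were seen. The main MAGOHB isoform did not match in length and is missing from it. Strand is not stated, so overlapping genes can share reads. Replicate numbers came from the sample titles; in 21 of 21 pairs of groups, replicate deviations were correlated (0.160 to 0.571), so the numbers pair the libraries. The members, lists and named genes (all 6 genes, isoforms at 5% to 95% usage, the factors of a list of 24 that were called with the block, EIF4A1, EIF4A2 and 2 nearest genes each) were chosen with earlier results of these data known. The fits were tested on simulated data.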

Additional observations from a re-analysis of the deposited data

How the results depend on the processing

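Alternatives were another pseudocount, no filter on low values, median-ratio scaling, the replicate block, the arcsine scale, a higher minimum of 10 FPKM and leaving out each library in turn. The number of the 6 genes or their features called was the same in 160 of 162 alternative fits. The exceptions were the replicate block, with 3 genes called in knockdown against control, in place of 0, and 1 isoform in S34F against wild type, in place of 0; the cause was not tested. With that block, calls among all genes went from 405 to 1681 for knockdown, from 203 to 1070 for wild type against knockdown, from 62 to 547 for wild type against control and from 264 to 1136 for S34F. Leaving out single libraries also changed these totals, to 15 to 274 for knockdown, 5 to 57 and 5 to 34 for wild type against knockdown and control, and 47 to 332 for S34F. Called acceptors in S34F against wild type went from 878 to between 233 and 1072. The block moved no other call of a member. Of 147 alternatives for 16 single values, 142 kept direction and side of the threshold, 4 passed it only with the block, 1 no longer passed and 0 reversed. The one that no longer passed was RNPS1 exon 2 without ENST00000570051 (-3.33 points), chosen after seeing the data. That fit lacks most of the FPKM that spans the site without using it. Leaving out single libraries, that site's S34F difference ran from -15.88 to -14.23 points (limma adjusted p from 0.0034 to 0.010), v1 S34F replicate 2 included. The knockdown differences ran from 0.06 to 0.33 for EIF4A3, 0.09 to 0.50 for CASC3 (0.11 to 0.44 for S34F) and 0.32 to 0.46 for RNPS1. Depth limits the low isoforms, and 2 libraries per group limit every comparison.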
